A study of Mus musculus with 4 samples.

Results

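Transcripts of 32 genes that mark tissue macrophages and monocytes were followed through arrays of sorted regulatory T cells (Tregs), CD4+ lymphocytes that hold immune responses in check and depend on FOXP3. The genes were listed by name, from Adgre1, which encodes F4/80, to Sirpa. They make up 32 of the 22180 gene symbols on 23521 probe sets with exactly 1 symbol, and each of the 32 had exactly 1 such probe set. The list was chosen by the log2 values of such genes on the 2 WT arrays, whose difference was already known, so values that compare those arrays are given as a description, with no test.

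The cells were CD4+ CD25+ YFP+ cells isolated without culture from C57BL/6 spleens and lymph nodes by magnetic selection for CD4 and a flow cytometric sort to above 95% purity, per the labels. There were 2 groups. TregΔ142 Tregs (2 arrays) came from FoxP3YFP-Cre x Mir142fl/fl mice, in which Cre expressed with YFP from the Foxp3 locus removes the gene of the microRNA miR-142 in cells that express Foxp3. WT Tregs (2 arrays) came from FoxP3YFP-Cre x Mir142+/+ mice, which carry the same Cre. The sources call the duplicates individually processed without saying whether they came from separate animals, so p-values refer to array-to-array spread alone, and that spread may be technical. The labels of these samples give no age.

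Macrophages of the spleen are named by where they sit. Those of the red pulp carry F4/80 and VCAM1, depend on the transcription factor SPIC, engulf aged red cells, break down heme with heme oxygenase 1 and release the iron through ferroportin. Marginal zone and CD169+ metallophilic macrophages line the border of the white pulp and carry MARCO and sialoadhesin. Both kinds share receptors for immunoglobulin, complement and dying cells with monocytes. CD4+ T cells are not defined by these products.

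The deposited values are log2 values from the authors' RMA (robust multi-array average) step, 1 for each probe set and array, and a difference of 1 is 2-fold. The sorted cells carried Treg transcripts on all 4 arrays. Foxp3 stood at 11.84 and 11.81 on the TregΔ142 arrays, and at 11.70 and 11.67 on the WT arrays, with Cd4, Cd3e, Il2ra and Ctla4 at 9.72 or more on every array. Mir142 stood at 6.44 and 5.96 in TregΔ142 Tregs and at 8.88 and 9.26 in WT Tregs. These arrays are of bulk RNA. More macrophages among the sorted cells, more RNA per macrophage and transcripts made by the Tregs themselves cannot be told apart.

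Most of the macrophage genes were highest on a single array, WT replicate 1. It was the highest of the 4 arrays for 25 of the 32 genes, as it was for 20.3% of all tested probe sets. WT replicate 2 was the highest array for 0 of the 32 and the lowest for 22, where 27.2% of all tested probe sets had their lowest value on that array. WT replicate 1 exceeded WT replicate 2 for 30 of the 32 genes (48.5% of all tested probe sets), with a median difference of 0.94 on the log2 scale against −0.01 over all tested probe sets. It exceeded WT replicate 2 by 1 or more for 14 of the 32 genes and each of the other 3 arrays by 1 or more for 11, with 0.319% and 0.0850% of all tested probe sets doing so. Because the list was proposed from this difference, nothing further is read from these shares. The TregΔ142 arrays lay much closer to each other, with a median difference of 0.16 (replicate 1 minus replicate 2), a range from −0.35 to 0.63, and 0 genes apart by 1 or more (0.268% of all tested probe sets were). TregΔ142 replicate 1 was the higher of these for 24 of the 32 genes, and for 50.7% of all tested probe sets.

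**Figure D1:**
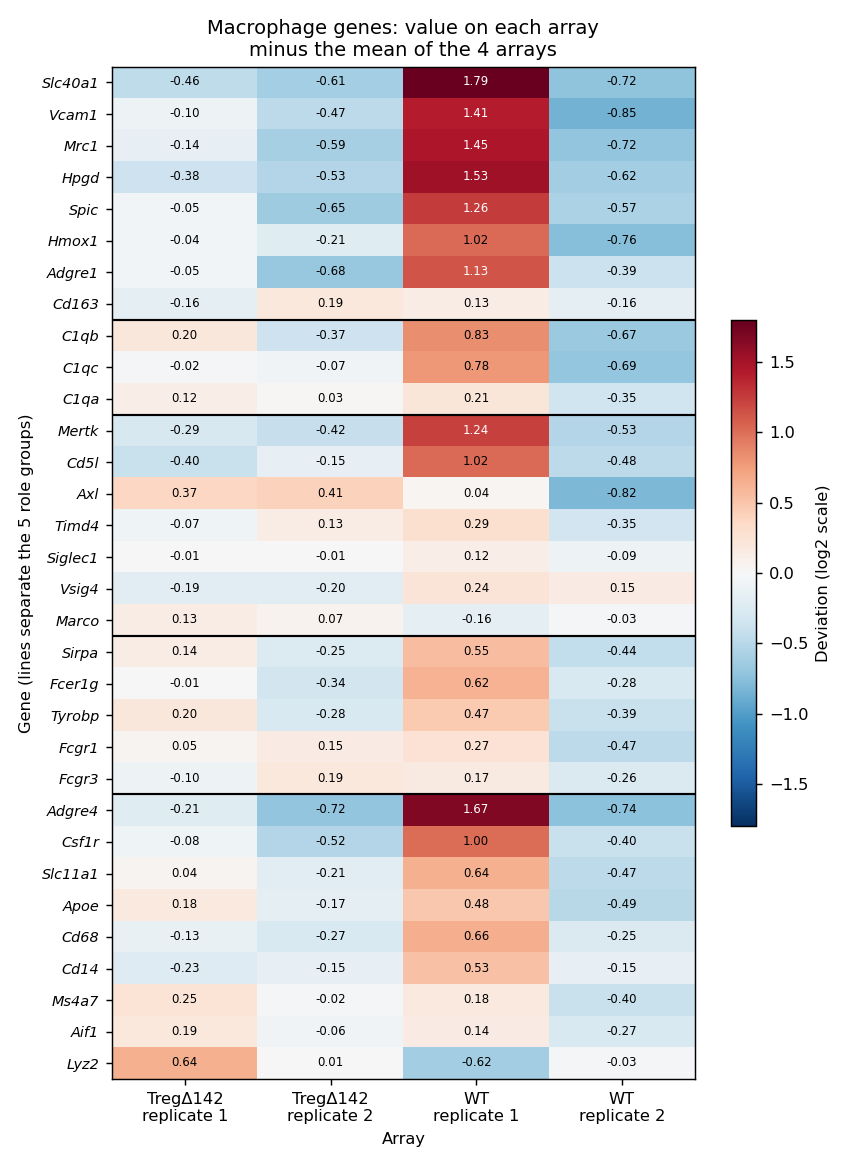
Each row is a macrophage gene, each column an array, TregΔ142 to the left of WT, and each cell the array's value minus the mean of the gene's 4 arrays on the log2 scale (red higher, blue lower, lines between the role groups). WT replicate 1 is the highest array for 25 of the 32 genes, and Lyz2 is lowest there.

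The table holds no detection calls, and the 1108 probe sets of olfactory receptor genes, which lymphoid cells are not known to express, served as a rough background. Probe sets differ in brightness, so this gives no more than an orientation. On their highest array 28 of the 32 genes exceeded 6.19, the 95th percentile of the olfactory receptor values, and Cd163, Vsig4, Cd14 and Ms4a7 did not. At the 99th percentile, 7.23, 19 of the 32 did so. Per array, 23 and 19 of the 32 exceeded 6.19 in TregΔ142 Tregs and 27 and 16 in WT Tregs. Adgre1, Adgre4, Cd5l, Timd4 and Siglec1 exceeded 6.19 on WT replicate 1 alone. A difference against a value under 6.19 is given on the log2 scale with no fold, since that side was not above this level.

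Genes of red pulp identity and iron recycling stood furthest apart. Slc40a1, which encodes the iron exporter ferroportin, was at 6.39 and 6.25 in TregΔ142 Tregs and at 8.64 and 6.14 in WT Tregs. WT replicate 1 stood above the other 3 arrays, 2.50 over WT replicate 2, whose value was under 6.19. This was the second largest such difference of the 23521 probe sets, and the margin of 2.25 by which WT replicate 1 exceeded the next array ranked 1 over all of them. Hpgd, the prostaglandin-degrading enzyme 15-hydroxyprostaglandin dehydrogenase, had 6.31 and 6.16 in TregΔ142 Tregs and 8.22 and 6.07 in WT Tregs. WT replicate 1 was again the highest, 2.15 above WT replicate 2, and both replicate 2 arrays were under 6.19.

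Vcam1, an adhesion molecule of red pulp macrophages that endothelial and stromal cells can also make, had 7.42 and 7.05 in TregΔ142 Tregs and 8.92 and 6.67 in WT Tregs. Mrc1, the mannose receptor CD206, had 6.38 and 5.93 in TregΔ142 Tregs and 7.98 and 5.81 in WT Tregs. For both genes WT replicate 1 was the highest array and WT replicate 2 the lowest, with differences of 2.25 and 2.17 between them. Spic itself was at 6.22 and 5.63 in TregΔ142 Tregs and at 7.53 and 5.71 in WT Tregs. Adgre1 was at 6.17 and 5.53 in TregΔ142 Tregs and at 7.35 and 5.83 in WT Tregs. In these genes TregΔ142 replicate 1 stood above TregΔ142 replicate 2 by 0.60 for Spic and 0.63 for Adgre1, so that the remaining 3 arrays were less alike than for Slc40a1.

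Hmox1, heme oxygenase 1, had 7.24 and 7.07 in TregΔ142 Tregs and 8.30 and 6.52 in WT Tregs, with both TregΔ142 arrays between the WT arrays. Cd163, the receptor for haptoglobin-bound hemoglobin, did not share the pattern. It was low on all arrays, at 4.83 and 5.17 in TregΔ142 Tregs and at 5.11 and 4.83 in WT Tregs. The median difference between the WT arrays over these 8 genes was 1.99, and 7 of the 8 exceeded each other array by 1 or more on WT replicate 1.

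**Figure D2:**
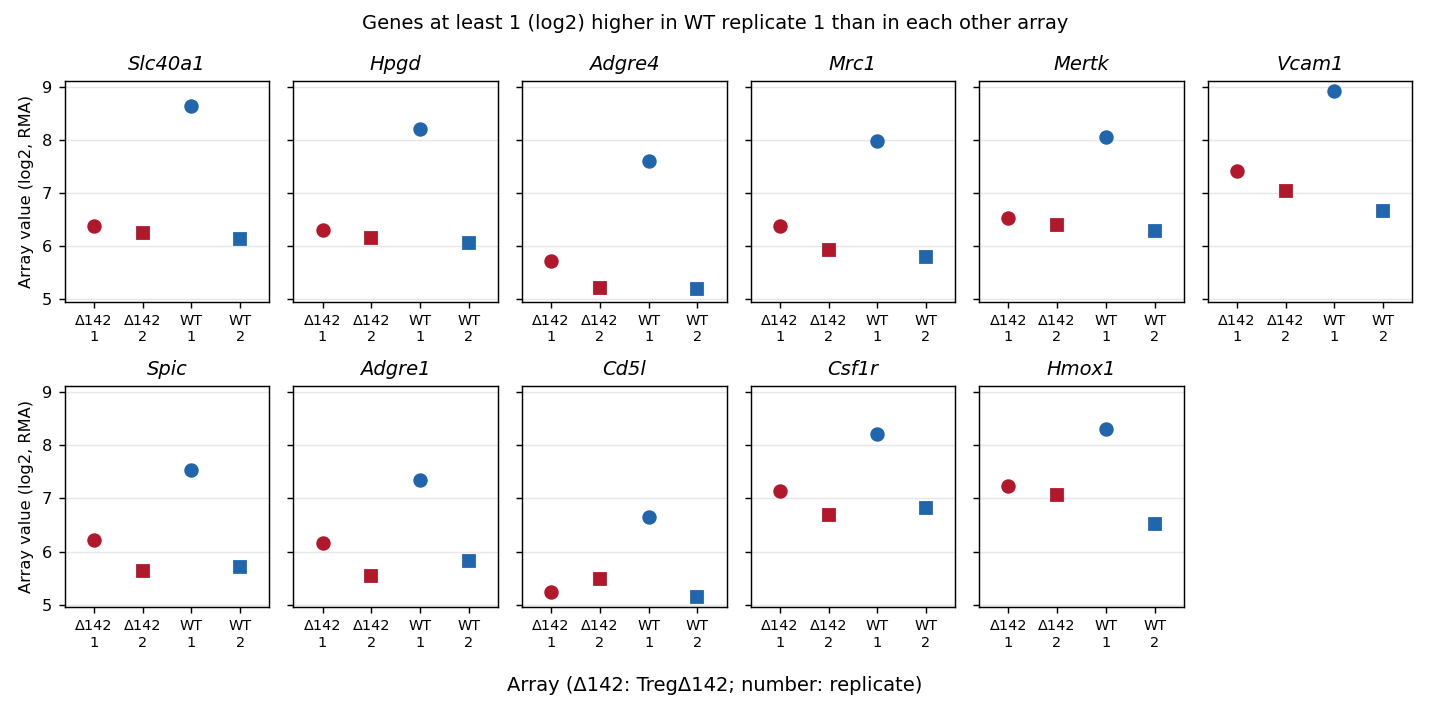
Log2 array values (vertical axis) of the 11 macrophage genes whose value on WT replicate 1 was at least 1 above each other array, with TregΔ142 arrays in red to the left of WT arrays in blue, circles for replicate 1 and squares for replicate 2. The margin over the next array ran from 2.25 for Slc40a1 to 1.07 for Hmox1. Panels share an axis, but probe sets differ in brightness, so heights are not compared between genes.

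The C1q chains, which together form the recognition molecule of the classical complement pathway, were apart on the WT arrays to unequal extents. C1qb was at 8.74 and 8.17 in TregΔ142 Tregs and at 9.38 and 7.87 in WT Tregs. C1qc was at 6.38 and 6.33 in TregΔ142 Tregs and at 7.18 and 5.71 in WT Tregs. C1qa was at 6.96 and 6.87 in TregΔ142 Tregs and at 7.06 and 6.49 in WT Tregs. For all 3 chains WT replicate 1 was highest and WT replicate 2 lowest, 2.83-fold apart for C1qb and 1.48-fold for C1qa. For C1qc the difference was 1.47, with WT replicate 2 under 6.19. WT replicate 2 lay 0.58 and 0.64 below the TregΔ142 mean for C1qb and C1qc, a larger gap than the 0.19 for Slc40a1.

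Receptors for uptake of dying cells and particles divided. Mertk, a receptor tyrosine kinase through which macrophages clear apoptotic cells, had 6.53 and 6.40 in TregΔ142 Tregs and 8.06 and 6.29 in WT Tregs. Cd5l, a secreted scavenger protein of tissue macrophages (AIM), had 5.23 and 5.48 in TregΔ142 Tregs and 6.65 and 5.15 in WT Tregs. Both had WT replicate 1 alone on top. Axl, the kinase related to Mertk, had another order, with 9.79 and 9.84 in TregΔ142 Tregs and 9.46 and 8.61 in WT Tregs, both TregΔ142 arrays being above both WT arrays.

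The genes of marginal zone, metallophilic and other resident macrophages were nearly flat. Marco, a scavenger receptor of marginal zone macrophages, had 6.36 and 6.30 in TregΔ142 Tregs and 6.08 and 6.20 in WT Tregs. Siglec1, the sialoadhesin CD169 of metallophilic macrophages, had 6.16 on both TregΔ142 arrays and 6.29 and 6.08 in WT Tregs. Vsig4, a complement receptor of resident macrophages, had 4.49 and 4.47 in TregΔ142 Tregs and 4.91 and 4.83 in WT Tregs. Their differences between the WT arrays were −0.13, 0.21 and 0.08, while Timd4, the phosphatidylserine receptor TIM-4, had 0.64 with a highest value of 6.20. Values so near background cannot show whether transcripts of these macrophages differed between the arrays.

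Fc receptors and their signalling partners stood in between. Their differences between the WT arrays ran from 0.42 for Fcgr3, a low-affinity immunoglobulin receptor, to 0.99 for Sirpa, which receives the CD47 signal that protects cells from being engulfed. Tyrobp (DAP12), an adaptor that NK cells also use, had 8.05 and 7.57 in TregΔ142 Tregs and 8.31 and 7.45 in WT Tregs. Fcer1g, the common Fc receptor gamma chain, differed by 0.90 between the WT arrays. The high-affinity receptor gene Fcgr1 differed by 0.73. None of these 5 genes reached a difference of 1, and for Tyrobp, Fcer1g and Sirpa TregΔ142 replicate 1 was the second highest array. Fcgr3 and Sirpa have relatives of similar sequence, so the specificity of their probe sets is uncertain.

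General monocyte and macrophage genes were the most mixed. Adgre4, the F4/80-like receptor FIRE of mouse myeloid cells, had 5.72 and 5.21 in TregΔ142 Tregs and 7.60 and 5.19 in WT Tregs, a WT difference of 2.41. Csf1r, the receptor for the macrophage growth factor CSF1, had 7.14 and 6.69 in TregΔ142 Tregs and 8.22 and 6.81 in WT Tregs, a WT difference of 1.41. Both were highest on WT replicate 1 by more than 1 over any other array. Slc11a1, the metal transporter NRAMP1 of phagosomes, differed by 1.11 between the WT arrays, Apoe, which encodes apolipoprotein E, by 0.97, Cd68, a lysosomal glycoprotein of phagocytes, by 0.91 and Cd14, the lipopolysaccharide co-receptor, by 0.68.

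Ms4a7, a membrane protein of mature macrophages, and Aif1, the calcium-binding protein IBA1, differed by 0.58 and 0.42 between the WT arrays, and both were highest on TregΔ142 replicate 1. Lyz2, the lysozyme of myeloid cells, ran the other way, with 9.31 and 8.68 in TregΔ142 Tregs and 8.05 and 8.64 in WT Tregs. WT replicate 1 was thus the lowest array for Lyz2, which neutrophils express as well and whose near-identical neighbour Lyz1 makes its probe set uncertain.

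**Figure D3:**
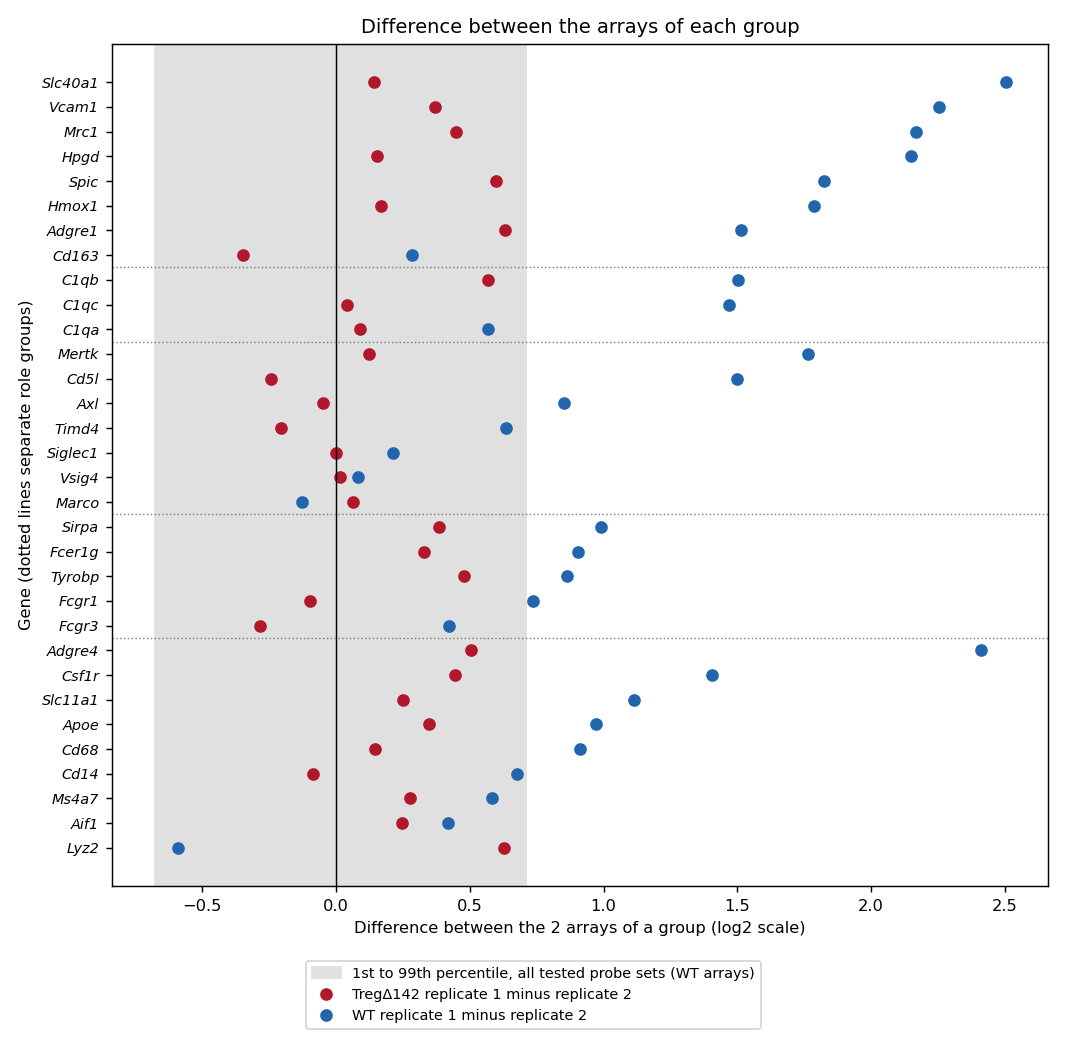
Difference between the 2 arrays of each group (horizontal axis, log2 scale) for each macrophage gene, TregΔ142 replicate 1 minus replicate 2 in red and WT replicate 1 minus replicate 2 in blue. The grey band spans the 1st to 99th percentile of the WT difference over all tested probe sets, −0.68 to 0.71. TregΔ142 differences stay between −0.35 and 0.63, whereas WT differences reach 2.50.

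The promoters of these genes were searched for the PU box, the purine-rich core GAGGAA that the myeloid factor PU.1 and its relative SPIC recognise. RefSeq promoters (GRCm38.p6, 250 bases before to 50 after the start) matched 22 of the 32 genes. The other 10 were not searched: Slc40a1, Vcam1, Hmox1, Adgre1, C1qa, Siglec1, Tyrobp, Sirpa, Csf1r and Cd14. GAGGAA or its reverse complement TTCCTC, searched for on both strands, stood in a promoter of 16 of the 22 (72.7%), and in one of 31.3% of the 27025 genes in the table. Of the 22, it was found in 7 of the 9 genes whose WT arrays differed by 1 or more and in 9 of the other 13, and Spic, Mertk, Cd163, Timd4, Fcer1g and Lyz2 had no match in the window. A match of 6 bases is common, so this is a description of the sequence and not of a bound site. To show the sequence around the motif in genes that stood apart on WT replicate 1, 30-base windows upstream of the start are given 5′ to 3′ on the gene's strand, with the motif in capitals. They lie at chr8:56294310-56294339 (plus strand, 230 bases before the start) for Hpgd, chr2:14229367-14229396 (plus strand, 35 bases) for Mrc1, chr4:136886213-136886242 (minus strand, 30 bases) for C1qb, chr4:136893090-136893119 (minus strand, 193 bases) for C1qc and chr3:87357803-87357832 (plus strand, 66 bases) for Cd5l.
Hpgd: tcctttcagcttTTCCTCtcttagctcact
Mrc1: aaaagggacagcTTCCTCtgtcctcctttt
C1qb: gcagcaggatggGAGGAAcagaggggtgat
C1qc: gacggcagacacTTCCTCattttggcacac
Cd5l: cagtcacctcccTTCCTCtggccatgctga

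The comparison of TregΔ142 with WT sets sorted cells from mice whose Tregs lack miR-142 against sorted cells from WT mice. The paper reports that TregΔ142 mice develop a multisystem inflammatory disease. The part of disease, or of the makeup of the sorted cells, in these values was not tested. None of the 32 macrophage genes passed limma's adjusted p of 0.05 over all tested probe sets, where 0.0255% of all probe sets did (limma adjusted p from 0.29 to 0.99). None met the study's cutoff of 2-fold or more with p under 0.05, taken here as limma's unadjusted p and in both directions. Of all tested probe sets, 0.506% met it. For this comparison the study names the cutoff for genes higher in TregΔ142 Tregs, without saying whether p was adjusted. At unadjusted p under 0.05 limma gave 2 of the 32 higher, Axl and Lyz2, and 1 lower, Vsig4, in TregΔ142 Tregs (6.82% and 4.85% of all tested probe sets). The median log2 fold change (TregΔ142 minus WT) was −0.17 over the 32 genes and 0.01 over all tested probe sets. It was −0.72 for red pulp and iron genes, −0.09 for C1q chains, −0.03 for uptake receptors, −0.07 for Fc receptors and partners and −0.16 for general monocyte and macrophage genes.

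Slc40a1, Adgre4 and Hpgd had the largest negative fold changes. Slc40a1 averaged 6.32 ± 0.10 in TregΔ142 Tregs and 7.39 ± 1.77 in WT Tregs (SD, n = 2 each), a log2 fold change of −1.07 with a standard error (SE) of 0.71 (limma adjusted p = 0.61). Adgre4 averaged 5.47 ± 0.36 in TregΔ142 Tregs and 6.39 ± 1.70 in WT Tregs, and Hpgd 6.23 ± 0.11 and 7.14 ± 1.52 in the same order, with log2 fold changes of −0.93 (SE 0.70) and −0.91 (SE 0.61). The SD was larger in WT than in TregΔ142 Tregs for 30 of the 32 genes. With 2 arrays the WT SD is set by the difference between the WT arrays, by which the list was chosen. Nothing is read from this count. Axl was the largest positive value, with means of 9.81 ± 0.03 in TregΔ142 Tregs and 9.03 ± 0.60 in WT Tregs, 1.72-fold higher in TregΔ142 Tregs (log2 fold change 0.78, SE 0.26, limma adjusted p = 0.35).

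Both TregΔ142 arrays lay above both WT arrays for 3 of the 32 genes, Axl, Lyz2 and Marco, as they did for 23.9% of all tested probe sets. They lay below both WT arrays for 1, Vsig4, where 19.8% of all tested probe sets had that order. Vsig4 averaged 4.48 ± 0.01 in TregΔ142 Tregs and 4.87 ± 0.06 in WT Tregs (log2 fold change −0.39, SE 0.11, limma adjusted p = 0.29), both low values. In the other 28 genes the groups overlapped.

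The sign of the comparison turned with the WT array it was set against. With WT replicate 2 left out, 29 of the 32 genes had a negative log2 fold change and the median was −0.72. With WT replicate 1 left out, 30 had a positive one and the median was 0.32. The sign differed between these fits for 27 of the 32 genes. These counts rest on the WT values by which the list was chosen, and the share over all tested probe sets was not counted. They are a description, and nothing is read from them about the genes. Slc40a1 had −2.32 with WT replicate 2 left out and 0.19 with WT replicate 1 left out. Vcam1 had −1.69 and 0.56 in the same order. Axl, Marco and Lyz2 stayed positive and Vsig4 and Cd14 negative in both.

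The number of genes past limma's adjusted p of 0.05 also depended on the WT array: 6 of the 32 without WT replicate 2 (0.196% of all tested probe sets), 1 without WT replicate 1 (0.544%) and 0 with both. At the study's threshold there were 11 without WT replicate 2 (0.680% of all tested probe sets) and 1 without WT replicate 1 (0.974%). The 6 were Slc40a1, Hpgd, Adgre4, Mrc1, Vcam1 and Mertk, lower in TregΔ142 Tregs, and the 1 was Axl, higher in TregΔ142 Tregs. These counts rest on the WT values by which the list was chosen, so they are a description with no p given and nothing is read from them about the genes. For each gene both fits take their spread from the TregΔ142 pair, moderated by limma towards the spread over all tested probe sets. The lone WT array is assumed to vary like that pair.

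**Figure D4:**
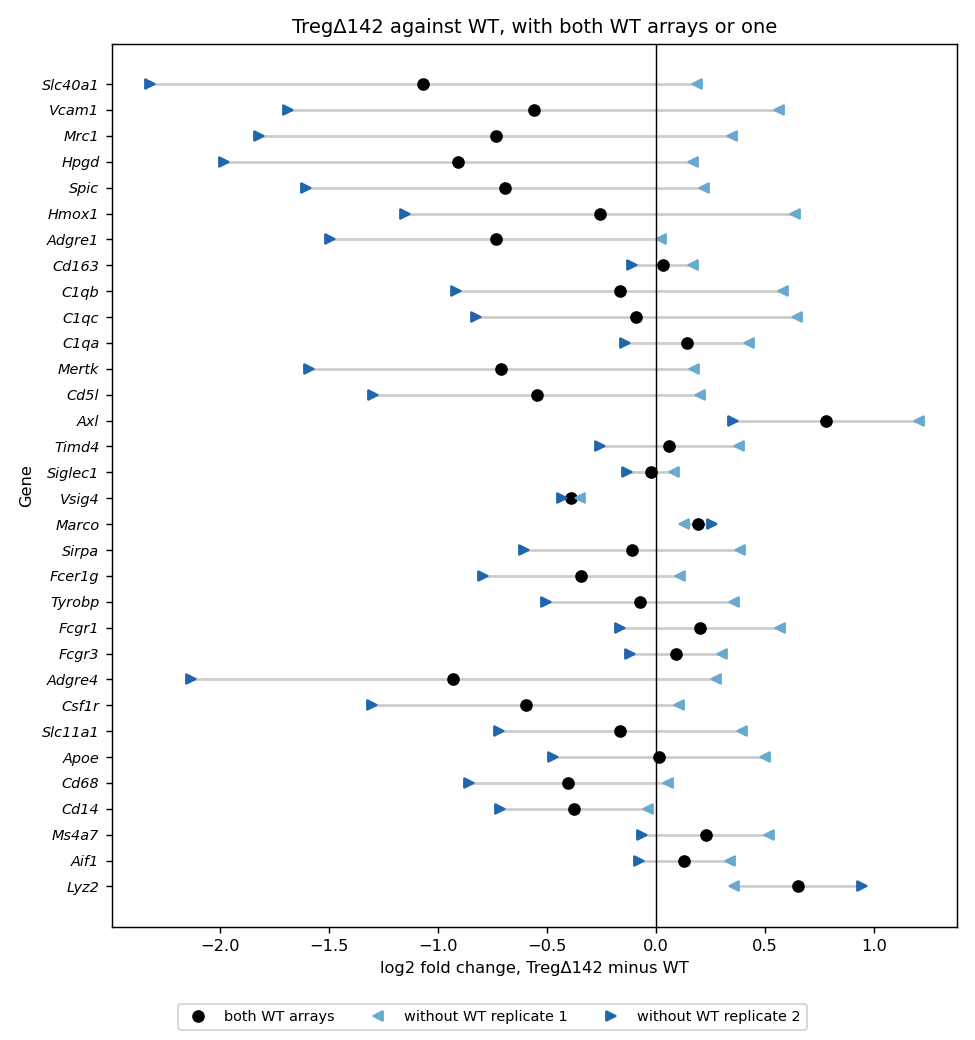
Log2 fold change, TregΔ142 minus WT (horizontal axis), of each macrophage gene with both WT arrays (black circles), without WT replicate 1 (light blue) and without WT replicate 2 (dark blue). Slc40a1 moves between −2.32 and 0.19, whereas Axl, Marco, Lyz2, Vsig4 and Cd14 stay on one side of 0.

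Other macrophage and monocyte genes that were not on the list shared the difference between the WT arrays in part. Of 30 listed, 28 were measured, 22 of these were higher on WT replicate 1 than on WT replicate 2 (48.5% of all tested probe sets), and 3 by 1 or more (0.319%). These 3 were Itgad, the integrin αD of red pulp macrophages, at 1.38, Clec4a3, a myeloid lectin, at 1.35 and Mpeg1, the pore-forming protein perforin-2, at 1.05. Clec12a, an inhibitory lectin of myeloid cells, followed with 0.97. The median was 0.36. WT replicate 1 was the highest array for 12 of the 28 (20.3% of all tested probe sets). Its median difference from the TregΔ142 mean was 0.005, against 0.72 for the 32 macrophage genes. That of WT replicate 2 was −0.16, against −0.32. This list too was drawn up with earlier results of these data known. Spi1, which encodes PU.1 and was named after its values were seen, had 6.88 and 6.70 in TregΔ142 Tregs and 6.71 on both WT arrays. In the comparison of TregΔ142 with WT, limma called 0 of the 28 at adjusted p under 0.05, with 5 higher and 1 lower in TregΔ142 Tregs at unadjusted p under 0.05 (6.82% and 4.85% of all tested probe sets).

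Other genes that handle heme and iron had smaller differences between the WT arrays than Slc40a1 and Hmox1. Of 16 listed, 14 were measured, and their WT differences ran from −0.37 for Cp, the ferroxidase ceruloplasmin, to 0.36 for Slc48a1, the heme transporter HRG1, with a median of 0.03. Blvrb, a biliverdin reductase, had 0.21 and Flvcr1, a heme exporter, −0.15. For lysosomal genes, 15 of 18 measured, the median was 0.10, with Ctsh and Ctsd (cathepsins H and D) at 0.48 and 0.23, Ctsb (cathepsin B) at 0.22 and Grn (progranulin) at 0.45. In both lists 0 genes were apart by 1 or more between the WT arrays. Cp was under 6.19 on every array, while Slc48a1 stood at 9.31 or more and Ctsb at 11.13 or more on every array. Small differences at such levels cannot show whether macrophage transcripts of these genes differed between the arrays. At limma adjusted p under 0.05 in the comparison of TregΔ142 with WT, 0 of 14 and 0 of 15 passed. At unadjusted p under 0.05, 1 heme and iron gene was higher and 0 lower in TregΔ142 Tregs, and 5 lysosomal genes were higher and 1 lower, where 6.82% and 4.85% of all tested probe sets were higher and lower.

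Markers of other cell types had list medians closer to 0 on the same WT arrays, with single markers further apart. Median WT differences were 0.22 for 11 of 12 B cell markers, 0.06 for 5 of 5 plasma cell markers, 0.03 for 8 of 9 dendritic cell markers, 0.16 for 5 of 7 NK cell markers and 0.05 for 10 of 11 endothelial and stromal markers. They were −0.09 for 4 of 10 erythroid markers, −0.26 for 5 of 6 platelet markers, −0.34 for 2 of 2 CD8 T cell markers and 0.12 for 8 of 8 Treg genes. The measured NK cell and erythroid markers were under 6.19 on every array. So were some B cell, plasma cell, dendritic cell, platelet and stromal markers. Small differences at such levels cannot show whether transcripts of those cells differed. All 11 measured B cell markers were higher on WT replicate 1 (48.5% of all tested probe sets were), with Cd79a and Blk, of the B cell receptor and its signalling, at 0.66 and 0.62, and the plasma cell gene Jchain, the joining chain of secreted antibody, was at 0.90, near the macrophage median of 0.94. Their part in the macrophage values was not tested. Of the 58 genes in these 9 lists 0 were apart by 1 or more. WT replicate 1 was higher by 1 or more for 0.319% of all tested probe sets, and lower for 0.298%. In the comparison of TregΔ142 with WT limma called 0 at adjusted p under 0.05 (0.0255% of all tested probe sets). At limma unadjusted p under 0.05, 9 were higher and 4 lower in TregΔ142 Tregs (6.82% and 4.85% of all tested probe sets). Of the 9, 3 were Treg genes.

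Neutrophil markers went the other way. The median WT difference of the 12 was −0.56, and WT replicate 2 was higher by 1 or more for 5 of them, as it was for 0.298% of all tested probe sets. S100a8, a calcium-binding alarmin, had −1.90, Ly6g, the neutrophil surface marker, −1.51, Retnlg −1.30 and Ngp, a granule protein, −1.28. The log2 of the summed linear neutrophil values was 9.86 and 10.35 in TregΔ142 Tregs and 9.49 and 10.38 in WT Tregs. The same sum over the 8 red pulp and iron genes was 9.54 and 9.25 in TregΔ142 Tregs and 11.06 and 9.03 in WT Tregs. Between TregΔ142 and WT limma called 0 of the 12 neutrophil markers at adjusted p under 0.05, and 0 at unadjusted p under 0.05. Neutrophil values were thus lowest on the array where the red pulp genes were highest. What part, if any, the makeup of the sorted cells has in either was not tested.

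**Figure D5:**
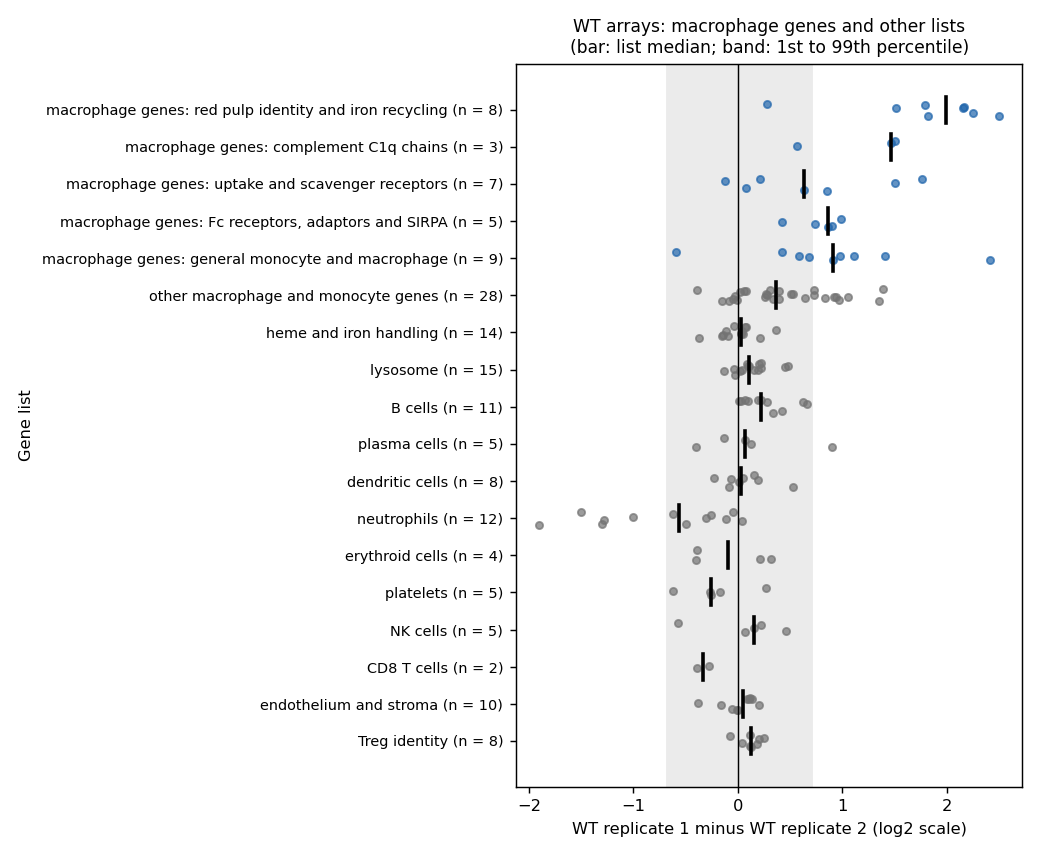
WT replicate 1 minus WT replicate 2 (horizontal axis, log2 scale) for each gene (points) of the macrophage role groups (blue) and of other lists (grey), with black bars at list medians and the 1st to 99th percentile of all tested probe sets shaded. Medians run from 1.99 for red pulp and iron genes to −0.56 for neutrophil markers.

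Among the 12 probe sets with the largest excess of WT replicate 1 over WT replicate 2 and a mean level above 6.28, the median over the table, 6 belonged to the macrophage genes: Slc40a1, Vcam1, Mrc1, Hpgd, Hmox1 and Mertk. For these 6 WT replicate 1 was the highest array. Of the other 6, Klrg1, a receptor of differentiated lymphocytes, Lilrb4a, an inhibitory receptor, Gm4951 and F830016B08Rik were highest in TregΔ142 Tregs, with Klrg1 at 11.65 and 11.58 in TregΔ142 Tregs and at 10.15 and 8.03 in WT Tregs. Hspa1a, an inducible heat shock protein with a near-identical copy (Hspa1b), and the small nuclear RNA Rnu12 were highest on WT replicate 1, at 8.88 and 11.44. Ranked by the margin over the next array instead, 7 of the first 10 probe sets of the whole table were macrophage genes. Both counts rest on the WT values by which the list was chosen, so nothing is read from them about the genes.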

How the data were processed

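Total RNA of the 4 samples was amplified as cDNA (Ovation Pico WTA kit) and hybridised by the authors to Mouse Gene ST 2.0 arrays from Affymetrix. The deposited log2 values, 1 per probe set, were made by the authors with RMA, a background correction followed by quantile normalization and probe summary, and oligo is a further tool in the submitters' processing notes. The log2 scale was inferred from the method and from the values (1.87 to 13.9). Quantile normalization hides a change shared by most transcripts, and precision is limited by the number of arrays.

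Samples were grouped by title. Of 41345 rows, 23521 had exactly 1 symbol in the platform annotation and were tested, 1820 listed several and 16004 none. The highest-mean probe set stood for a gene. Groups were compared with limma 3.58.1 (lmFit, eBayes, no block, no filter) in R 4.3.3, with Benjamini-Hochberg adjustment over all tested probe sets, and the fits were tested on simulated data. Fold changes are TregΔ142 minus WT.

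The members and gene lists were chosen with earlier results of these data known. Named were all 32 members, in each other list up to 4 genes with the largest absolute WT difference, the 12 probe sets with the largest WT difference in each direction above the median mean, and checks of cell type and deletion. Alternatives were a replicate block, an intensity trend, the methods' t-test (equal variance, which for 2 groups equals the 1-way ANOVA their statistics section names for array parameters), other row filters, median centring, the mean over probe sets and leaving out each array.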

Additional observations from a re-analysis of the deposited data

How the results depend on the processing

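Precision rests on 2 arrays per group, and the table gives no signal over background. Deviations of same-numbered arrays from their group means correlated weakly, with r = −0.12 across the 23521 probe sets, which are not independent replicates. This value cannot tell whether the replicate numbers pair the samples, and the titles do not say. The replicate block called 0 of the 32 genes at limma adjusted p under 0.05 and 0 at the study's threshold, as did the crossed pairing, which was chosen after seeing the data. So did the intensity trend, the methods' t-test, all rows, the filter on level, median centring and the mean over probe sets. Leaving out 1 array gave 0 to 6 of the 32 at adjusted p under 0.05, 0 to 11 at the study's threshold and medians from −0.72 to 0.32. Median centring turned the sign of Apoe to −0.034 and of Cd163 to −0.018, and no member gained or lost a call in any setting with all 4 arrays.

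Over all tested probe sets the count at adjusted p under 0.05 was 6, and 115 with the intensity trend, 0 with the methods' t-test (2067 at its unadjusted p under 0.05), 2 over all rows, 91 above the median level and 0 to 128 with 1 array left out. The count at the study's threshold was 119, and 67 with the methods' t-test, 293 over all rows and 116 to 229 with 1 array left out. The median WT difference was 1.11 over the 19 members above the median level.

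The sign turned with 1 array left out for 27 of the 32 genes, a count that rests on the WT values by which the list was chosen. For red pulp and iron genes the lowest and highest log2 fold changes with 1 array left out were −1.49 and 0.021 for Adgre1, −1.69 and 0.56 for Vcam1, −1.61 and 0.22 for Spic, −2.32 and 0.19 for Slc40a1, −1.15 and 0.63 for Hmox1, −0.14 and 0.20 for Cd163, −1.98 and 0.17 for Hpgd, −1.82 and 0.35 for Mrc1. For C1q chains the lowest and highest log2 fold changes with 1 array left out were −0.14 and 0.43 for C1qa, −0.92 and 0.58 for C1qb, −0.83 and 0.64 for C1qc. For uptake receptors the lowest and highest log2 fold changes with 1 array left out were −1.59 and 0.17 for Mertk, −0.26 and 0.38 for Timd4, −0.13 and 0.081 for Siglec1, −1.30 and 0.20 for Cd5l. For Fc receptors and partners the lowest and highest log2 fold changes with 1 array left out were −0.17 and 0.57 for Fcgr1, −0.12 and 0.30 for Fcgr3, −0.50 and 0.36 for Tyrobp, −0.80 and 0.11 for Fcer1g, −0.60 and 0.39 for Sirpa. For general genes the lowest and highest log2 fold changes with 1 array left out were −1.30 and 0.10 for Csf1r, −0.86 and 0.053 for Cd68, −0.080 and 0.34 for Aif1, −0.064 and 0.52 for Ms4a7, −0.72 and 0.39 for Slc11a1, −0.47 and 0.50 for Apoe, −2.13 and 0.28 for Adgre4.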

Other observations

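The other end of the difference between the WT arrays held secretory proteins of salivary gland. Dcpp2, a demilune cell and parotid protein, stood at 10.58 and 8.91 in TregΔ142 Tregs and at 3.83 and 11.54 in WT Tregs. Bpifa2, the parotid secretory protein, stood at 10.41 and 9.44 in TregΔ142 Tregs and at 7.55 and 11.58 in WT Tregs. Dcpp3, Dcpp1, Scgb2b27 and Scgb1b27 also had their lowest value on WT replicate 1 and their highest on WT replicate 2, with differences of −6.89, −4.33, −6.30 and −3.38 (WT replicate 1 minus WT replicate 2). The Dcpp genes are close relatives, so their probe sets are not independent. Most of the macrophage genes were highest on the WT array where these were lowest; the part of other tissue in either was not tested.

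Genes of dividing cells were among the 12 at that end as well. The cyclin genes Ccna2 and Ccnb2 had differences of −1.76 and −1.71, the cell cycle repressor gene E2f8 −1.86 and the linker histone gene H1f5 −1.70. The immunoglobulin segment Igkv8-30 had −1.93.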
